A study of Mus musculus with 16 samples.

Results

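Described here are 41 genes of DNA replication and mitosis in mouse alveolar macrophages (AMs), the resident phagocytes of the air spaces. They were taken from the 7946 genes of the deposited table by symbol alone, without use of their values. A gene entered if its symbol began with Mcm, Rfc, Orc, Gins, Rpa, Pola, Pold, Pole or Prim followed by a digit, or with Cenp or Aurk, or if it stood on a list of 20 individual symbols. Of those 20 symbols 9 were listed (Lig1, Fen1, Rrm1, Top2a, Birc5, Plk1, Mki67, Bub3 and Tuba1b), and the other 11, among them Pcna, Cdk1, Ccnb1, Ccna2, Rrm2 and Cdc20, were not analysed here. By role, 24 genes act in replication and 15 in mitosis, and 2 entered by their names only. Mcm3ap encodes a factor of mRNA export from the nucleus and Aurkaip1 a protein of the mitochondrial ribosome.

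As background, a dividing cell copies its DNA once per cycle. The origin recognition complex marks start sites, the MCM ring is loaded there and unwinds the helix with the help of GINS, replication protein A covers the single strands, the polymerases copy them, and the clamp loader, Fen1 and Lig1 complete the lagging strand. In mitosis, Aurora and Polo kinases drive spindle assembly, CENP proteins build the centromere and kinetochore, and the passenger protein survivin (Birc5) corrects faulty attachments. The p16 protein blocks the kinases CDK4 and CDK6, which keeps the retinoblastoma protein on E2F factors and their target genes, many of them replication genes, repressed. Adult AMs maintain themselves by slow local division.

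The libraries came from C57BL6 mice that inhaled an aerosol of Escherichia coli lipopolysaccharide (LPS, 0.5 mg/ml in PBS) or of PBS alone for 30 min, 3 times a week over 10 weeks. By INs-seq, a method that joins intracellular staining to RNA sequencing, lung cells were fixed and stained for p16, and those that carried CD45, CD11c and Siglec-F were split by sorting into a p16-positive and a p16-negative fraction. The resulting 4 groups, PBS p16-negative, PBS p16-positive, LPS p16-negative and LPS p16-positive, had 4 libraries each, made from 5000 sorted cells per sample. The titles call the replicates biological but do not name the animals, and the labels speak of pooled samples. The labels give neither age nor sex. The study's methods describe female mice, some young adult and some old, and the labels do not say which of these gave the libraries. The p-values given here therefore rest on the variation among libraries, which may be technical.

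Depth differed widely, from 13861 counted transcripts (unique molecular identifiers, UMIs) in PBS p16-positive replicate 1 to 1176358 in LPS p16-positive replicate 4. Levels are given in CPM, UMIs per 1000000 UMIs of the library. A single UMI was worth 72.1 CPM in the shallowest library and 0.850 CPM in the deepest, and a 0 allows up to 3 UMIs, or 216 and 2.55 CPM respectively. In each group replicate 4 was the deepest library. All 19 markers of AMs were listed, with a summed level between 8513 and 86411 CPM, and none was at 0 throughout a group. The level differed between groups, with a median of 40770 CPM in PBS p16-negative and 22227 CPM in PBS p16-positive libraries. After LPS the medians were 57194 CPM in the p16-negative and 56003 CPM in the p16-positive fraction. The lowest library was a PBS p16-positive one. Cdkn2a, the gene of p16, had 58 UMIs in all, of which 8 lay in PBS p16-negative, 7 in PBS p16-positive, 9 in LPS p16-negative and 34 in LPS p16-positive libraries. Its log2 fold change between the fractions was -0.44 (SE 0.74, adjusted p = 0.951 by edgeR), and counts at the 3′ end do not separate p16 from p19Arf, the other product of that gene.

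E2F factors and the cell cycle complexes MuvB and DREAM recognise short DNA words, which are shown first because promoters are where p16 signalling meets these genes. RefSeq promoter windows on GRCm38.p6, from 250 bases before to 50 bases after a start site, were matched for 36 of the 41 genes. One of 4 E2F words (TTTCCCGC, TTTCGCGC, TTTGCCGC or TTTGGCGC, either strand) stood in a window of 12 of these 36 genes (33.3%), of 4.31% of the other genes in the table and of 2.61% of all reference genes. The share was 9 of 20 replication genes, 4 of 5 MCM genes and 3 of 15 mitosis genes. The CHR word TTTGAA, bound by MuvB, stood in 6 of 15 mitosis genes (40%), 3 of 20 replication genes (15%) and 13.5% of the other genes in the table. Among all reference genes its share was 20.2%. The CCAAT word stood in 21 of 36 members (58.3%) against 41.5%, and the GC box GGGCGG in 69.4% against 69.9%. These are counts of letters, the words were chosen with the gene names known, and no test was run on them. The windows of the MCM genes and of Cenpm are printed because Cenpm, Mcm2 and Mcm7 carried the lowest p-values in the comparisons that follow and the MCM genes act as a ring. Capitals mark the E2F words, lower case all other bases, 5′ to 3′ on the gene's strand.
Mcm3, chr1:20820263-20820562, minus strand: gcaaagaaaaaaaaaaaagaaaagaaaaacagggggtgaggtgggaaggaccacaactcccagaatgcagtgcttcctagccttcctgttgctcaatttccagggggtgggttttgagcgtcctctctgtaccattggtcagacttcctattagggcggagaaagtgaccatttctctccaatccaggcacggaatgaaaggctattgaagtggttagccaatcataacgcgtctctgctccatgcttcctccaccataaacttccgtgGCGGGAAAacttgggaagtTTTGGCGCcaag
Mcm5, chr8:75109259-75109558, plus strand: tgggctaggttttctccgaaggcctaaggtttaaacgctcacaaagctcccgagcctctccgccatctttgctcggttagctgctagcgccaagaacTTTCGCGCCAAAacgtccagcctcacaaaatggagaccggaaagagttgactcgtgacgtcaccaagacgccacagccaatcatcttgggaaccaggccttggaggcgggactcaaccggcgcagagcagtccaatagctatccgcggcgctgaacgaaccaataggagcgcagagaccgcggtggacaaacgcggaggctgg
Mcm6, chr1:128359656-128359955, minus strand: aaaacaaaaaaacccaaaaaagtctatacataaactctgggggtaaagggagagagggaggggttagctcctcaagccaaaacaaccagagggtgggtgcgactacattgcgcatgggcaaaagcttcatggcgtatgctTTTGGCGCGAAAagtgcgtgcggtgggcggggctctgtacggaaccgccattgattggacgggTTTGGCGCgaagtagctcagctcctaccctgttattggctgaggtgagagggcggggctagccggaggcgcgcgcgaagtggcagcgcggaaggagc
Mcm7, chr5:138171834-138172133, minus strand: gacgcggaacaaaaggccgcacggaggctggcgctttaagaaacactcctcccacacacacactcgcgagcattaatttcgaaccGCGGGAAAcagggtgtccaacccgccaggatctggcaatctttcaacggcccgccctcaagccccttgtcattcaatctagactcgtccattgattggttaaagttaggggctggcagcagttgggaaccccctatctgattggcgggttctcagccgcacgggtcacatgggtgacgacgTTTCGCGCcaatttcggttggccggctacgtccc
Cenpm, chr15:82244287-82244586, minus strand: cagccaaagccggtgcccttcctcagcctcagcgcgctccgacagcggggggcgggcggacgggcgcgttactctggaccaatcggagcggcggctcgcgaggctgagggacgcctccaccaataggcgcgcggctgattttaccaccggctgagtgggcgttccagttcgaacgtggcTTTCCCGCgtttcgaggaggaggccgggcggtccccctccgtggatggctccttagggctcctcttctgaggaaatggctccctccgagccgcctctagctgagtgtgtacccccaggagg
Mcm2, chr6:88898731-88899030, minus strand: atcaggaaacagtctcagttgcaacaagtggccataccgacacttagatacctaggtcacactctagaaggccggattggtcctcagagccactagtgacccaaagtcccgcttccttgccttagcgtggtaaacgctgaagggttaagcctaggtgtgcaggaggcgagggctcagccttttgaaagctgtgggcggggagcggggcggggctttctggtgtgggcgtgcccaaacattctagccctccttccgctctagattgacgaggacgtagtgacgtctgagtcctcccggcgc
In Mcm6 and in Mcm5 a pair of E2F words overlapped on opposite strands, and Mcm7 has a second RefSeq window with no match. The Mcm2 window held none of the 4 words, which says only that these letters are not in that stretch.

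**Figure D1:**
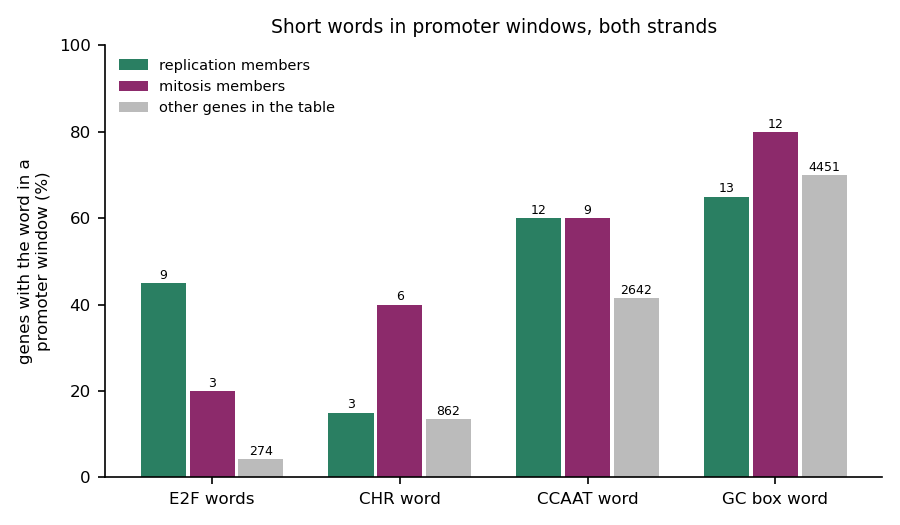
Share of genes (%, from 0) with each DNA word in a promoter window, for replication genes (green, 20 matched), mitosis genes (purple, 15 matched) and the other genes in the table (grey, 6364 matched), with the number of genes above each bar. E2F words stand out in replication genes (9 genes) and the CHR word in mitosis genes (6 genes), while the GC box is at 65% to 80% in all 3 sets.

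The members were sparse. Together they held 11661 of 3734815 UMIs (0.312%), and Tuba1b with 5022 and Cenpb with 2404 UMIs made up 63.7% of these. The median member had 73 UMIs over all 16 libraries against 98 for all listed genes, and Tuba1b and Cenpb were the only members with a UMI in every library. A total of 9 members stayed under the 30 UMIs required for a test, namely Orc6 (13), Prim2 (14), Mki67 (17), Cenpt (21), Pole4 (23), Cenpe (25), Mcm5 (27), Aurka (29) and Top2a (29). The best-known proliferation marker, Mki67, was at 0 in 9 libraries and reached 6 UMIs only in the deepest one. Top2a, the topoisomerase that untangles sister chromatids, had between 0 and 6 UMIs per library. Every gene of the table reaches 6 UMIs in its highest library. For 8 of the 41 members (19.5%) that library was LPS p16-positive replicate 4 and no other, against 14.0% of all genes, so the membership of the sparsest genes rests on that library.

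No member passed the test in any of the 7 comparisons. The tests were edgeR quasi-likelihood F tests over all 16 libraries, with p-values adjusted by Benjamini-Hochberg over 6516 genes. In the p16 comparison, which sets p16-positive against p16-negative AMs with treatment as a covariate, 0 of 32 tested members were called, where 1.41% of all tested genes were (92 genes, or 0 without LPS p16-negative replicate 4 and 284 without LPS p16-positive replicate 4). At an unadjusted p under 0.05 there were 2 members, Cenpm and Mcm2, both lower in the p16-positive fraction, against 10.2% of all genes in either direction and 1.3% in the lower one. DESeq2 also called 0 members (all genes 1.06%). In the LPS comparison, LPS against PBS with the fraction as a covariate, 0 members were called (all genes 0.921%, 60 genes, or 195 when replicate 2 of LPS p16-positive was left out and 29 when replicate 4 of PBS p16-positive was) and 1, Mcm7, had an unadjusted p under 0.05, on the lower side (all genes 9.27%, on the lower side 4.07%). DESeq2 called 0 members there as well (all genes 2.07%).

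The fold changes of the members leaned towards the p16-negative fraction. In the p16 comparison 21 of 32 members had a log2 fold change below 0, against 43.1% of all genes, and their median was -0.30 against 0.08. The 20 replication genes had a median of -0.20 (13 below 0) and the 10 mitosis genes one of -0.44 (7 below 0). The range ran from -1.99 for Cenpm to 0.71 for Pola2, with a median SE of 0.53 per gene. The members' median log2 CPM had an SD of 0.47 between replicate libraries. All members were read in the same libraries, so their signs are not independent of each other. Leaving out single libraries, their p16 median ran from -0.34 to -0.16. In the LPS comparison 16 of 32 members were below 0, against 39% of all genes, and the median was -0.00 against 0.14. The sign of such small LPS values moves with the scaling, since the median of all genes ran from 0.14 with TMM factors to -0.08 with library totals. Relative to all genes the members' median was lower by a log2 difference of -0.14 with TMM factors, -0.12 with library totals and -0.09 with DESeq2. These are descriptions of genes chosen by name, and no p is attached to them.

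**Figure D2:**
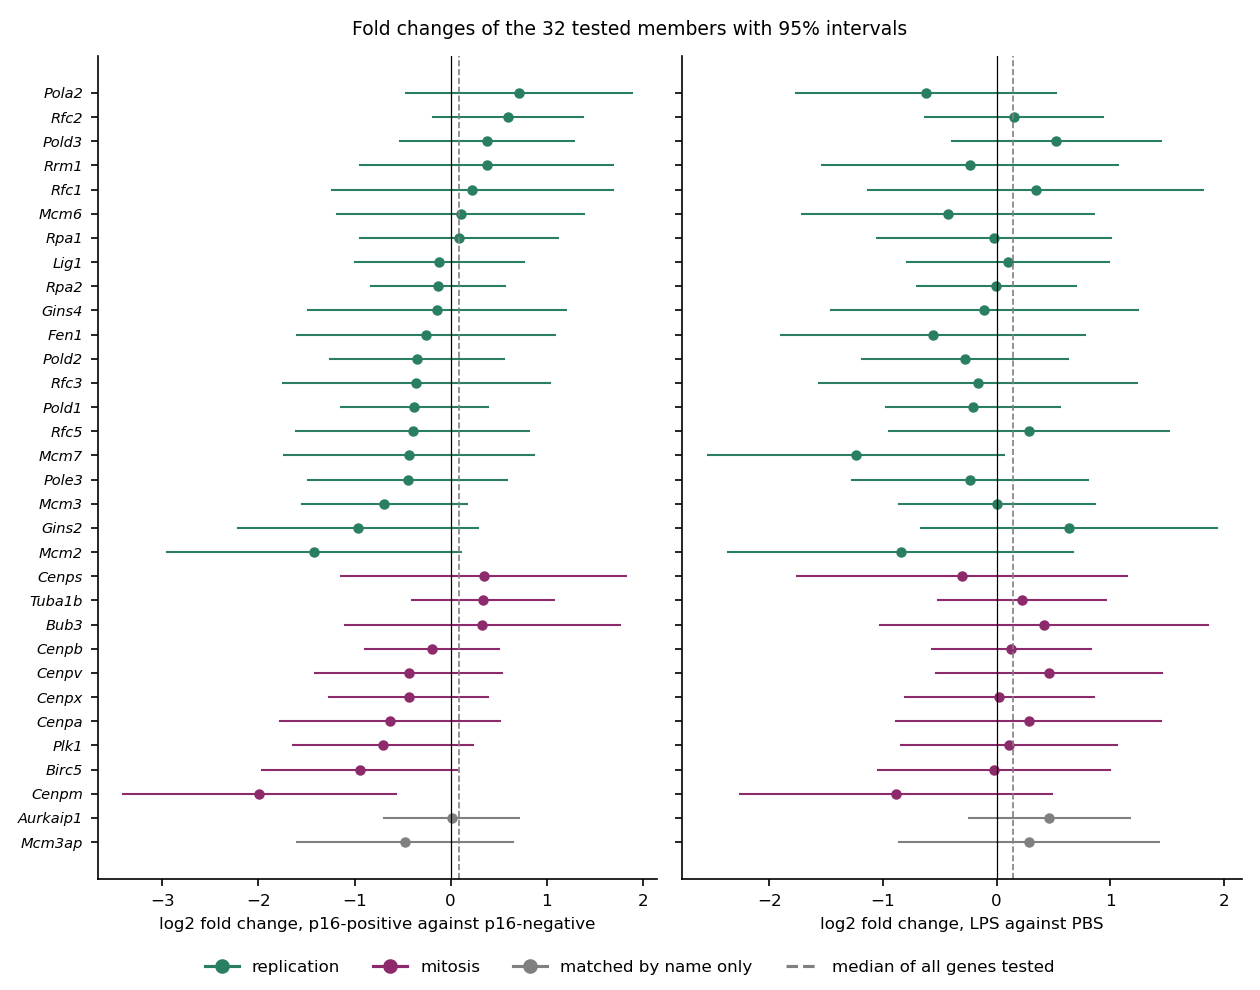
Log2 fold changes (points) with 95% intervals (lines) of the 32 tested members, p16-positive against p16-negative on the left and LPS against PBS on the right, replication genes in green, mitosis genes in purple and genes matched by name only in grey, and the dashed line at the median of all tested genes. All intervals span 0 except that of Cenpm in the p16 comparison (-1.99).

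The MCM genes, taken as a sum, had their highest mean in PBS p16-negative AMs. The summed level of Mcm2, Mcm3, Mcm5, Mcm6 and Mcm7 was 127, 115, 196 and 160 CPM in the PBS p16-negative libraries, replicates 1 to 4. It was 72.1, 91.0, 82.7 and 115 CPM in PBS p16-positive libraries. After LPS it was 69.3, 50.0, 96.1 and 139 CPM in the p16-negative and 22.4, 37.4, 67.4 and 124 CPM in the p16-positive fraction. The PBS p16-negative libraries thus had a mean of 150 ± 36.4 CPM (SD, n = 4) and the LPS p16-positive ones 62.8 ± 44.9 CPM, with PBS p16-positive (90.3 ± 18.4 CPM) and LPS p16-negative (88.7 ± 38.7 CPM) between them. The spread within groups was large, LPS p16-positive replicate 4 lay above PBS p16-negative replicate 2, and neighbouring groups in this order overlapped. These sums rest on 399 UMIs, with 1 UMI in PBS p16-positive replicate 1 and 146 in LPS p16-positive replicate 4. With the UMIs of each group pooled, the level was 163 CPM in PBS p16-negative and 103 CPM in PBS p16-positive AMs. After LPS the pooled level was 106 CPM in the p16-negative and 95.6 CPM in the p16-positive fraction. The groups other than PBS p16-negative thus lay close together when pooled.

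**Figure D3:**
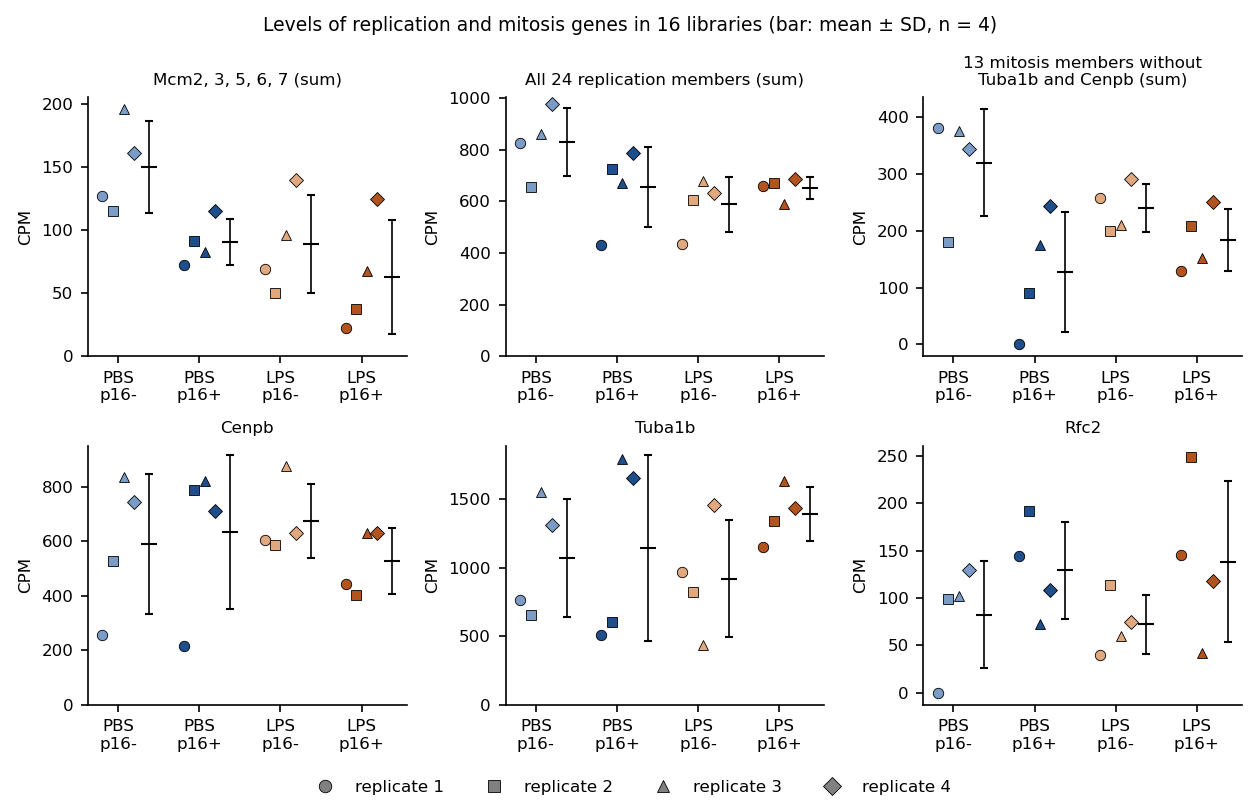
Level (CPM) in each of the 16 libraries by group for the MCM genes, all 24 replication genes, the 13 mitosis genes other than Tuba1b and Cenpb, and for Cenpb, Tuba1b and Rfc2 alone, with marker shape for the replicate and bars for the mean ± SD (n = 4). The MCM sums are between 115 and 196 CPM in PBS p16-negative and between 22.4 and 124 CPM in LPS p16-positive libraries.

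Mcm3, the MCM gene with most UMIs (184), was at 63.5, 49.3, 111 and 40.1 CPM in PBS p16-negative libraries and at 0, 40.4, 36.2 and 36.9 CPM in PBS p16-positive ones. After LPS it was at 39.6, 42.9, 30.0 and 79.6 CPM in the p16-negative and at 16.8, 13.6, 50.5 and 60.4 CPM in the p16-positive fraction. In PBS only replicate 2 of the p16-positive fraction reached the lowest p16-negative library, whereas the fractions overlapped after LPS. Its log2 fold change was -0.69 (SE 0.42, 95% interval -1.54 to 0.16, adjusted p = 0.663 by edgeR) in the p16 comparison and 0.00 (SE 0.42) in the LPS comparison. The LPS value lay on either side of 0 depending on the scaling.

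Mcm7 was the member with the lowest p in the LPS comparison. Its levels were 63.5, 16.4, 25.6 and 40.1 CPM in PBS p16-negative, 72.1, 30.3, 20.7 and 27.7 CPM in PBS p16-positive, and 9.90, 7.14, 0 and 29.9 CPM in LPS p16-negative libraries. In the LPS p16-positive fraction replicates 1 to 3 held 0 UMIs and replicate 4 held 27 (23.0 CPM). Only the deepest library of each fraction after LPS reached the levels seen in PBS. The log2 fold change was -1.24 (SE 0.64, 95% interval -2.54 to 0.06, adjusted p = 0.528 by edgeR), and without LPS p16-positive replicate 4 it was -1.94 (adjusted p = 0.228). For 0 of the 591155 UMIs of replicates 1 to 3 the exact Clopper-Pearson interval at 95%, which covers counting error only, reached up to 6.24 CPM, and that of replicate 4 ran from 15.1 to 33.4 CPM, so the intervals did not overlap. Mcm7 overlaps Cops6 on the opposite strand.

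Mcm2 had 35 UMIs. It was at 0, 0, 34.1 and 31.2 CPM in PBS p16-negative and at 0, 0, 0 and 16.1 CPM in PBS p16-positive libraries. After LPS it was at 9.90, 0, 18.0 and 9.95 CPM in the p16-negative and at 5.60, 0, 0 and 6.80 CPM in the p16-positive fraction. A UMI was seen in 5 of 8 p16-negative and in 3 of 8 p16-positive libraries, and the ranges overlapped at 0. Its value in edgeR, as a log2 fold change, was -1.42 (SE 0.75, 95% interval -2.96 to 0.11, adjusted p = 0.471 by edgeR) in the p16 comparison and -0.84 (SE 0.75, adjusted p = 0.800) in the LPS comparison. Mcm6, with 78 UMIs, had log2 fold changes of 0.10 (SE 0.63) and -0.43 (SE 0.63), and the first turned negative when 1 of 3 libraries was left out, namely replicate 1 (-0.07) or replicate 2 (-0.10) of the LPS p16-negative fraction or the deepest library (-0.04). Mcm5, at 27 UMIs, was not tested, and in the LPS p16-positive fraction all of its 10 UMIs were in replicate 4.

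Among the factors that set up origins, Gins2, a subunit of the GINS part of the helicase, had 48 UMIs. It was at 0, 0, 8.52 and 22.3 CPM in PBS p16-negative, 0, 0, 10.3 and 11.5 CPM in PBS p16-positive, 19.8, 21.4, 30.0 and 14.9 CPM in LPS p16-negative and 5.60, 3.40, 16.8 and 12.8 CPM in LPS p16-positive libraries. All 4 LPS p16-negative libraries had at least 14.9 CPM, which 1 of the 4 LPS p16-positive ones also reached. The log2 fold change was -0.96 (SE 0.62, adjusted p = 0.678) for p16 and 0.64 (SE 0.64, adjusted p = 0.868) for LPS by edgeR. Gins2 overlaps Gse1 on the other strand. Gins4 had 43 UMIs and log2 fold changes of -0.14 and -0.11, and Orc6 had 13 UMIs, none of them in the PBS p16-positive fraction, where 0 of 739792 UMIs allows up to 4.99 CPM.

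Taken as a group of 7 genes, the DNA polymerases and primase held the most UMIs among the replication genes (810). Pold1, the catalytic subunit of polymerase delta, had 298 UMIs and was at 190, 49.3, 145 and 165 CPM in PBS p16-negative, 0, 111, 119 and 87.7 CPM in PBS p16-positive, 79.2, 92.9, 132 and 49.8 CPM in LPS p16-negative and 106, 78.3, 84.2 and 43.4 CPM in LPS p16-positive libraries. All groups overlapped. Its log2 fold change was -0.38 (SE 0.38, adjusted p = 0.887 by edgeR) for p16 and -0.21 (SE 0.38) for LPS. The accessory subunit Pold2 (161 UMIs) had -0.35 and -0.28. Pold3, another subunit of polymerase delta (154 UMIs), had values on the other side, 0.38 (SE 0.45) for p16 and 0.52 (SE 0.45, adjusted p = 0.812) for LPS. Its LPS p16-positive libraries, at 50.4, 27.2, 42.1 and 59.5 CPM, overlapped with the LPS p16-negative ones at 29.7, 14.3, 12.0 and 47.3 CPM. Pola2, the regulatory subunit of polymerase alpha, had 0.71 (SE 0.58, adjusted p = 0.800) for p16 and -0.62 (SE 0.56, adjusted p = 0.823) for LPS from 80 UMIs. Pole3 (80 UMIs) had -0.45 and -0.24, and Prim2 and Pole4 were too sparse to test.

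The clamp loader places the sliding clamp PCNA on DNA. Rfc2, one of its small subunits, had 432 UMIs and was at 0, 98.7, 102 and 129 CPM in PBS p16-negative, 144, 192, 72.3 and 108 CPM in PBS p16-positive, 39.6, 114, 60.1 and 74.7 CPM in LPS p16-negative and 146, 248, 42.1 and 118 CPM in LPS p16-positive libraries. After LPS, 3 of 4 p16-positive libraries lay above all p16-negative ones and replicate 3 lay below 3 of them. Its value in edgeR, as a log2 fold change, was 0.60 (SE 0.39, 95% interval -0.19 to 1.38, adjusted p = 0.717 by edgeR) for p16 and 0.15 (SE 0.39) for LPS. The highest value, 73 UMIs in LPS p16-positive replicate 2, came from the library with the highest summed level of ciliated cell markers after LPS, 7251 CPM, and the part of other cells in it was not tested. Rfc2 overlaps Lat2 on the opposite strand. The other subunits had 36 to 73 UMIs, with p16 log2 fold changes of 0.23 for Rfc1, -0.36 for Rfc3 and -0.39 for Rfc5.

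For replication protein A and the enzymes of lagging strand synthesis the p16 and LPS differences were smaller than their SEs. Rpa2 (319 UMIs) had a log2 fold change of -0.14 (SE 0.34, 95% interval -0.83 to 0.56) for p16 and -0.01 (SE 0.34) for LPS, and Rpa1 (119 UMIs) had 0.09 and -0.02 (SE 0.51 each). In the LPS libraries Rpa2 was at 49.5, 78.6, 96.1 and 79.6 CPM in the p16-negative and at 101, 68.1, 101 and 77.4 CPM in the p16-positive fraction, and the fractions overlapped. The DNA ligase Lig1 (157 UMIs) had -0.12 (SE 0.43) and 0.10 (SE 0.44), and the flap nuclease Fen1 (32 UMIs) had -0.26 (SE 0.66) and -0.56 (SE 0.66, adjusted p = 0.891). Rrm1, the large subunit of ribonucleotide reductase, which makes the DNA building blocks, had 0.37 (SE 0.65) and -0.24 (SE 0.64) from 69 UMIs. The intervals are wide for the sparse genes, that of Fen1 in the p16 comparison running from -1.60 to 1.09, so a difference within it was not detectable at this depth.

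Summed over all 24 replication genes the level was 825, 658, 861 and 976 CPM in PBS p16-negative, 433, 728, 672 and 789 CPM in PBS p16-positive, 436, 607, 679 and 635 CPM in LPS p16-negative and 660, 671, 590 and 686 CPM in LPS p16-positive libraries. The highest values were in PBS p16-negative libraries, and the other 3 groups had means of 655 ± 156, 589 ± 106 and 652 ± 42.6 CPM (SD, n = 4) against 830 ± 132 CPM. The groups overlapped, since PBS p16-negative replicate 2 (658 CPM) lay below libraries of each other group. The lowest value, 433 CPM, was that of the shallowest library. Scaled with TMM factors, the mean was 778 CPM in PBS p16-negative and 598 CPM in PBS p16-positive libraries. After LPS it was 687 CPM in the p16-negative and 731 CPM in the p16-positive fraction.

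Cenpm, a kinetochore protein of the inner centromere network, had the lowest p of all members, from 31 UMIs. It was at 0, 16.4, 51.1 and 13.4 CPM in PBS p16-negative and at 0, 10.1, 10.3 and 4.61 CPM in PBS p16-positive libraries. After LPS it was at 19.8, 7.14, 18.0 and 9.95 CPM in the p16-negative and at 0, 0, 0 and 5.10 CPM in the p16-positive fraction. After LPS all p16-negative libraries lay above all p16-positive ones, and in PBS each p16-negative library except the shallow replicate 1 did so too. The 7.14 CPM of LPS p16-negative replicate 2 was 1 UMI. The 0s of LPS p16-positive replicates 1 to 3 allow up to 16.8, 10.2 and 25.3 CPM. The order of the fractions after LPS is therefore not settled at this depth. The log2 fold change was -1.99 (SE 0.70, 95% interval -3.41 to -0.57, unadjusted p = 0.00384, adjusted p = 0.114 by edgeR) and DESeq2 gave an adjusted p of 0.187. Leaving out 1 of the 16 libraries put Cenpm under 30 UMIs in all but 8 cases. In those 8 the fold change ran from -2.08 to -1.83, with a lowest adjusted p of 0.0933. Within treatments it was -1.74 (SE 1.00, adjusted p = 0.945) in PBS and -2.23 (SE 1.03, adjusted p = 0.461) after LPS, and for LPS against PBS it was -0.89 (SE 0.68, adjusted p = 0.754).

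Among the mitotic regulators, Birc5 and Plk1 had values below 0 for p16 and Bub3 one above 0, and none of them passed the test. Birc5 (84 UMIs) was at 63.5, 65.8, 17.0 and 44.6 CPM in PBS p16-negative, 0, 0, 20.7 and 25.4 CPM in PBS p16-positive, 19.8, 28.6, 42.0 and 22.4 CPM in LPS p16-negative and 22.4, 20.4, 16.8 and 15.3 CPM in LPS p16-positive libraries. The ranges of the fractions overlapped in both treatments, by replicate 3 in PBS. Its log2 fold change was -0.95 (SE 0.50, 95% interval -1.96 to 0.06, adjusted p = 0.532 by edgeR) for p16 and -0.02 (SE 0.50) for LPS. Plk1, the Polo kinase (116 UMIs), was at 63.5, 0, 42.6 and 40.1 CPM in PBS p16-negative, 0, 20.2, 36.2 and 36.9 CPM in PBS p16-positive, 39.6, 35.7, 48.0 and 49.8 CPM in LPS p16-negative and 11.2, 30.6, 16.8 and 22.1 CPM in LPS p16-positive libraries. After LPS each p16-negative library lay above each p16-positive one. Even in replicate 4, the deepest library, the exact intervals overlapped. They ran from 30.4 to 76.9 CPM (20 UMIs) in the p16-negative and from 14.4 to 32.4 CPM (26 UMIs) in the p16-positive fraction. This order of the fractions is therefore not settled at this depth. For Plk1 the log2 fold change by edgeR was -0.70 (SE 0.46, adjusted p = 0.717) for p16, with -1.09 (SE 0.62, adjusted p = 0.904) within LPS, and 0.11 (SE 0.47) for LPS. Bub3, a spindle checkpoint protein (45 UMIs), had values above 0, 0.33 (SE 0.70) for p16 and 0.42 (SE 0.71) for LPS.

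The remaining centromere genes did not share the pattern of Cenpm in every case. Cenpx (250 UMIs) had p16 log2 fold changes of -0.44 (SE 0.41), Cenpv (148 UMIs) of -0.44 (SE 0.48) and Cenpa, the centromeric histone (64 UMIs), of -0.63 (SE 0.56), whereas Cenps, the partner of Cenpx in the CENP-S and CENP-X pair (30 UMIs), had 0.34 (SE 0.73). Cenps reached the minimum of a listed gene only in LPS p16-positive replicate 4 (8 UMIs). Its place in the table thus rests on a p16-positive library, and its sign is no evidence of a different pattern. Cenpv had 0.46 (SE 0.49, adjusted p = 0.868 by edgeR) for LPS. In PBS its p16 value was -1.24 (SE 0.76), within the p16-positive fraction its LPS value was 1.15 (SE 0.70), and neither passed the test (adjusted p = 0.966 and 0.911 by edgeR). Cenpv was at 16.8, 57.9, 8.42 and 53.6 CPM in LPS p16-positive and at 49.5, 28.6, 18.0 and 39.8 CPM in LPS p16-negative libraries, which overlapped.

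The 13 mitosis genes other than Tuba1b and Cenpb summed to 381, 181, 375 and 343 CPM in PBS p16-negative and to 0, 91.0, 176 and 245 CPM in PBS p16-positive libraries, and to 258, 200, 210 and 291 CPM in LPS p16-negative and 129, 208, 152 and 250 CPM in LPS p16-positive libraries. The means were 320 ± 94.2, 128 ± 106, 240 ± 42.5 and 184 ± 54.8 CPM (SD, n = 4) in this order. In each treatment the p16-negative mean was above the p16-positive one, and the libraries of the fractions overlapped. The 0 in PBS p16-positive replicate 1 came from the shallowest library, where a 0 allows up to 216 CPM. With the UMIs of each group pooled, the p16-negative and p16-positive levels were 330 and 201 CPM in PBS. After LPS they were 255 and 224 CPM, which is a smaller gap.

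Cenpb and Tuba1b, the most abundant members, had SEs among the lowest of the members. Cenpb binds a short box in satellite DNA and is expressed in most cells. It was at 254, 526, 835 and 745 CPM in PBS p16-negative, 216, 788, 822 and 711 CPM in PBS p16-positive, 604, 586, 877 and 632 CPM in LPS p16-negative and 442, 402, 632 and 629 CPM in LPS p16-positive libraries. Its log2 fold change was -0.20 (SE 0.34, 95% interval -0.89 to 0.50, adjusted p = 0.953 by edgeR) for p16 and 0.13 (SE 0.34) for LPS, the latter on either side of 0 depending on the scaling. Cenpb overlaps Spef1 on the same strand. Tuba1b, an alpha-tubulin of the cytoskeleton and the spindle, was at 762, 658, 1551 and 1311 CPM in PBS p16-negative, 505, 606, 1798 and 1659 CPM in PBS p16-positive, 971, 822, 432 and 1461 CPM in LPS p16-negative and 1153, 1345, 1634 and 1439 CPM in LPS p16-positive libraries. After LPS the p16-positive libraries were at 1153 CPM or more and 3 of 4 p16-negative ones at 971 CPM or less. The log2 fold change was 0.34 (SE 0.36, 95% interval -0.40 to 1.08, adjusted p = 0.905 by edgeR) for p16 and 0.22 (SE 0.36) for LPS, a sign that changed with library totals. Alpha-tubulin genes are near-identical copies in their coding sequence. The study counted only reads that mapped uniquely at 3′ ends, and the split of reads between Tuba1b and Tuba1a was not tested.

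Of the genes that entered by name only, Aurkaip1 (630 UMIs) was at 0.01 (SE 0.35) in the p16 comparison and Mcm3ap (104 UMIs) at -0.47 (SE 0.55). In the LPS comparison Aurkaip1 was at 0.46 (SE 0.35, adjusted p = 0.769 by edgeR) and Mcm3ap at 0.29 (SE 0.56).

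Within treatments and fractions the members showed no call either. In PBS, 0 members were called for p16 (all genes 0%) and 0 had an unadjusted p under 0.05 (all genes 5.54%), and 23 of 32 were below 0 with a median of -0.46 (all genes 46.7% below 0, median 0.06). Without PBS p16-negative replicate 4, 13 of the 28 members still tested were below 0 with a median of 0.0218, without its replicate 3 the median was -0.24, and among the 7 members left by the stricter filter filterByExpr it was 0.11. After LPS, 0 members were called for p16 (all genes 0%), 1, Cenpm, had an unadjusted p under 0.05 on the lower side (all genes 6.83%, on the lower side 0.476%), and 20 of 32 were below 0 with a median of -0.16 (all genes 42.9%, median 0.10), or with a median of 0.00172 without LPS p16-negative replicate 3. For LPS against PBS in the p16-negative fraction 0 members were called (all genes 0.0153%), 0 had an unadjusted p under 0.05 (all genes 4.39%), and 23 of 32 were below 0 with a median of -0.26 (all genes 43.5%, median 0.10). That median was -0.000634 without PBS p16-negative replicate 3 and 0.00390 without replicate 4. All 4 tested MCM genes were below 0 there, between -1.05 and -0.21, with a median SE of 0.96. In the p16-positive fraction 0 members were called (all genes 0.046%), 0 had an unadjusted p under 0.05 (all genes 6.15%), and 15 of 32 were below 0 with a median of 0.14 (all genes 37.8%, median 0.19), or -0.0167 without LPS p16-positive replicate 4. The test of whether the p16 difference differed between LPS and PBS called 0 members (all genes 0%, unadjusted 0 members against 1.55%), and 11 of 32 members were below 0 (all genes 45%) with a median of 0.41 against 0.08. The median was 0.13 without PBS p16-negative replicate 3 and 0.0217 without replicate 4, where 13 of 28 members were below 0. DESeq2 called 0 members in each of these comparisons, where it called 0.0767% of all genes for LPS in the p16-negative fraction, 0.338% in the p16-positive fraction and 0% in the others. The comparisons share libraries, so their values are not independent. With each PBS library paired to the other fraction of its number, 2.38% of all genes and 0 members were called for p16 in PBS.

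Replicate 4, the deepest library of each group, stood highest for some sets of members and not for others. Without Tuba1b and Cenpb, the summed level of the other 39 members was 1502 CPM in PBS p16-negative, 1227 CPM in PBS p16-positive, 1172 CPM in LPS p16-negative and 1178 CPM in LPS p16-positive replicate 4, the highest of its group in 4 of 4 groups. The MCM sum was highest in replicate 4 in 3 of 4 groups and the sum of all 41 members in 2 of 4. The sums of the polymerases and of origin recognition and GINS were highest there in 0 of 4 groups, and those of RPA, the clamp loader, the mitotic kinases and the centromere genes in 1 of 4 each. Gene by gene, replicate 4 was the highest library for 28.1% of the tested members in PBS p16-negative, 50% in PBS p16-positive, 40.6% in LPS p16-negative and 31.3% in LPS p16-positive, against 29.5%, 29.8%, 39.4% and 39.1% of all tested genes. Mcm3 in LPS p16-positive replicate 4 had 60.4 CPM (exact interval 47.1 to 76.1) against 22.0 CPM (11.7 to 37.6) in replicates 1 to 3 together. Pold1 went the other way in the same group, with 43.4 CPM (32.3 to 57.0) in replicate 4 against 88.0 CPM (65.7 to 115) in replicates 1 to 3 together. Replicate 4 is a label shared by the deepest libraries, and depth and sample cannot be told apart.

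**Figure D4:**
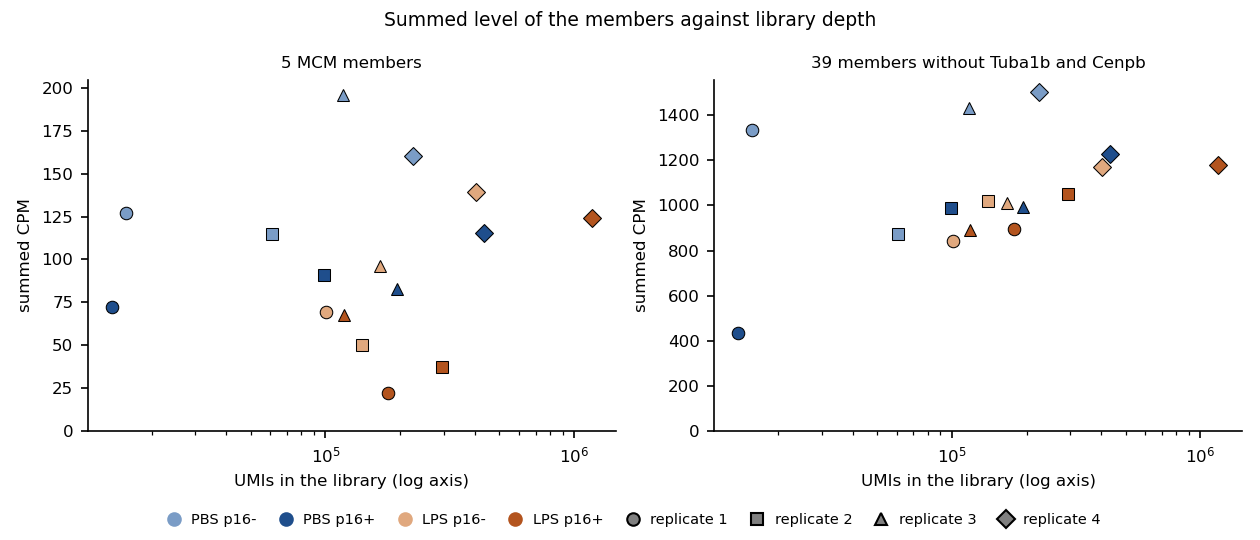
Summed level (CPM) of the 5 MCM genes (left) and of the 39 members without Tuba1b and Cenpb (right) against the UMIs of the library on a log axis, with colour for the group and shape for the replicate. The diamonds, replicate 4, are the deepest library of each group and hold the highest sum of their group in 4 of 4 groups on the right and 3 of 4 on the left.

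Markers of other lung cells also differed between the groups. The summed level of 8 endothelial markers was between 775 and 4443 CPM in PBS p16-negative and between 4863 and 11038 CPM in PBS p16-positive libraries, and between 162 and 707 CPM and 237 and 2447 CPM after LPS. The 8 secretory airway markers ran from 1006 to 177404 CPM and from 2717 to 266575 CPM in the PBS fractions, and from 423 to 9063 CPM and 1373 to 84566 CPM after LPS. The 10 listed of 12 ciliated cell markers ran from 383 to 1036 CPM and 765 to 2886 CPM in PBS, and from 198 to 782 CPM and 652 to 7251 CPM after LPS. The 6 markers of alveolar type II cells ran from 3852 to 24929 CPM and 11471 to 47630 CPM in PBS, and from 1868 to 22346 CPM and 1052 to 10246 CPM after LPS. Apart from 1 alveolar type II marker in LPS p16-positive libraries, none of these markers was at 0 throughout a group. In bulk samples fewer cells of a type and less RNA per cell cannot be told apart. The part of these cells in the members' values was not tested.

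Other genes of the cell cycle, from a list of genes outside the 41, also gave no call. Of 59 tested, 0 were called in the p16 comparison and 0 in the LPS comparison, with 4 at an unadjusted p under 0.05 in each, and their medians were -0.02 and 0.05. The lowest p for p16 was that of Tuba1a, the alpha-tubulin just named, at 1.61 (SE 0.49, adjusted p = 0.0894 by edgeR), followed by Ccnd1, the cyclin D1 partner of CDK4 and CDK6, at 1.62 (SE 0.51, adjusted p = 0.106). Next were Cdc25a, a phosphatase that activates cyclin-dependent kinases, at -1.11 (SE 0.51, adjusted p = 0.387), and Chtf18, a subunit of an alternative clamp loader, at -1.21 (SE 0.62, adjusted p = 0.478). For LPS the lowest were Ccnd1 at -1.33 (SE 0.50, adjusted p = 0.276), the kinesin Kif23 at -1.51 (SE 0.67, adjusted p = 0.382), the condensin subunit Ncapd2 at -1.31 (SE 0.57, adjusted p = 0.388) and Ube2c, an enzyme that marks cyclins for degradation, at 0.90 (SE 0.41, adjusted p = 0.461). The 13 other replication genes had a p16 median of 0.10 with 4 below 0, and the 28 other mitosis genes one of -0.19 with 18 below 0.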

How the data were processed

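Libraries were bulk MARS-seq libraries of 3′ transcript ends. The authors mapped reads with the UTAP pipeline to mm10, per the submitters' notes, and deposited UMI counts per gene and library, which were used here; versions are not given in the sources used here. Normalized values and the authors' own DESeq2 fold changes and p-values stand in the same table and were not used. Counts of all 16 libraries (4 groups of 4) were tested with edgeR 4.0.16 (quasi-likelihood F test, TMM factors, R 4.3.3) for genes with at least 30 UMIs in all, adjusted over 6516 genes at 0.05, with 7 comparisons, of which the p16 comparison was checked on simulated data. SEs are Wald errors. DESeq2 1.42.0, other scalings, other filters, a replicate block and leaving out libraries were alternatives. The main tests were unpaired. Within PBS, same-numbered fractions deviated together (correlations 0.545, 0.172, 0.342 and 0.371), and an alternative fit took them as paired. Same-numbered fractions can also share depth, as those of PBS replicate 1 did (15755 and 13861 UMIs). These correlations therefore cannot tell shared animals from shared depth. No replicates were duplicates: the chi-square per degree of freedom was at least 3.33 over 24 pairs. Named genes were the tested members with the 5 lowest p on either side of 0 in each main comparison, the 2 members with most UMIs per role, common proliferation genes, Cdkn2a and up to 4 other cycle genes per comparison; others were named after their values were seen. The members and lists were chosen with earlier results of these data known.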

Additional observations from a re-analysis of the deposited data

Results flagged for a closer look

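In 5 of 68 sets of 4 libraries, 1 library stood far from the other 3, judged by its gap to the nearest library over the range. The cutoff presumes about 1 in 20 by chance for normally distributed values, a rate that does not hold for sparse counts. Where 3 libraries are at 0, any UMI in the remaining library gives the highest possible ratio of 1. This was so for Mcm2, Mcm7 and Cenpm, each in replicate 4, the deepest library of its group. The number of flagged sets therefore cannot be compared with chance. Cenpb was at 877 CPM in LPS p16-negative replicate 3, where the others had 586 to 632 CPM. Mcm2 was at 16.1 CPM (7 UMIs) in PBS p16-positive replicate 4, where the others had 0. Mcm7 was at 23.0 CPM (27 UMIs) in LPS p16-positive replicate 4, where the others had 0. Cenpm was at 5.10 CPM (6 UMIs) in the same library, where the others had 0. Mcm3 was at 0 CPM in PBS p16-positive replicate 1, the shallowest library, where the others had 36.2 to 40.4 CPM and 1 UMI would be 72.1 CPM.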

How the results depend on the processing

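No member was called in any of the 7 comparisons under the other scalings, DESeq2, the other filters, the fit without both PBS replicate 1 libraries or leaving out each library in turn. The edgeR filter filterByExpr left 7 members to test. The members' p16 median stayed below 0 in all of these. Signs in the LPS comparison changed for Mcm3 (RLE factors -0.0823, library totals -0.18, DESeq2 -0.0715, without both PBS replicate 1 libraries -0.10), Cenpb (-0.00465, -0.13, -0.0417 and -0.16, and -0.0290 with filterByExpr), Tuba1b (library totals -0.00751, without both PBS replicate 1 libraries -0.0381) and Plk1 (library totals -0.10, DESeq2 -0.00540); the cause was not tested. Leaving out single libraries gave LPS ranges of -0.27 to 0.30 for Mcm3, -0.19 to 0.11 for Birc5, -0.00921 to 0.25 for Cenpb and -0.0802 to 0.25 for Plk1, and p16 ranges of -0.10 to 0.47 for Mcm6 and -1.07 to 0.0625 for Mcm7. TMM factors moved the mean sum of the replication genes in LPS p16-positive from 652 to 731 CPM and that of the 39 members in LPS p16-negative from 1011 to 1166 CPM. Counts over all genes moved more: for p16 from 92 to 157 without a filter, 21 with filterByExpr and 43 without both PBS replicate 1 libraries, and for LPS from 60 to 135 with DESeq2. Leaving out single libraries, they ran for p16 from 0 (without LPS p16-negative replicate 4) to 284 (without LPS p16-positive replicate 4) and for LPS from 29 (without PBS p16-positive replicate 4) to 195 (without LPS p16-positive replicate 2). Depth limits most members to a few UMIs per library.

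With the replicate number as a block, 0 members were called in all 7 comparisons, while calls over all genes went from 92 to 357 for p16, from 60 to 242 for LPS, from 0 to 155 and 147 for p16 in PBS and after LPS, from 1 to 26 and from 3 to 123 for LPS in the p16-negative and p16-positive fractions, and from 0 to 1 for the interaction. By their labels, same-numbered samples share only a number, in PBS as after LPS. The LPS pairs had correlations of -0.001, 0.186, 0.159 and 0.599, with 3 of 4 best with their own number, a hint from the data and not from the design. The pair with 0.599 held the deepest library of each LPS fraction, and the part of depth was not tested. PBS against LPS gave 0.271, 0.0367, 0.0713 and 0.0666 in the p16-negative and -0.12, 0.326, 0.104 and 0.280 in the p16-positive fraction.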
